A study of Rattus norvegicus with 36 samples.

Results

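Differentially methylated regions of 6 genes that set the fate of male germ cells were followed in rat germ cells, namely Gfra1, Etv5, Zbtb16, Nanos2, Prdm1 and Tfap2c. Every region that the authors' gene annotation assigned to a RefSeq transcript of these genes was taken, which gave 59 of the 29951 annotated regions of the study. Zbtb16 held 23 of them, Etv5 14, Gfra1 10, Prdm1 9, Tfap2c 2 and Nanos2 1. Methylation was measured by bisulfite sequencing of a captured rat panel in 9 stages with 4 samples each. They ran from gonocytes (GD16, GD18, GD20) through spermatogonia (PND5) and spermatids (R1-8, R9-12, R13-14, R15-17) to spermatozoa (SPZ in the files). All animals were untreated Sprague-Dawley rats with the GFP-GCS genotype, whose green fluorescence is specific to germ cells, and the cells were sorted by flow cytometry. Spermatozoa had a DNA extraction kit of their own. The sources used here name neither the promoter of the transgene nor whether replicate samples are separate animals.

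These genes act at 2 points of the male germ line. Prdm1 and Tfap2c encode transcription factors that, in the mouse, install and keep the primordial germ cell programme and hold back somatic genes. Gfra1, Etv5, Zbtb16 and Nanos2 are known from mouse spermatogonial stem cells. Gfra1 is the co-receptor through which the niche factor GDNF signals by way of the receptor tyrosine kinase Ret, Etv5 is an ETS transcription factor that responds to this signal, Zbtb16 (also called PLZF) is a zinc finger repressor that keeps stem cells undifferentiated, and Nanos2 is an RNA-binding protein that directs fetal germ cells to the male course and later maintains the stem cells. In fetal male germ cells DNA methylation is erased and then laid down anew before birth and shortly after it.

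Each region carries a mean level per stage, as the authors deposited it, and no values of single samples. A level therefore has no SD here, the read depth behind it is unknown, and a difference cannot be set against the spread between samples. The lists hold regions that passed the authors' own per-region test at an adjusted p of at most 0.05, with a difference of at least 30 percentage points in the 3 lists from GD16 to PND5 and of at least 10 points in the 4 spermatid lists. "Rose" and "fell" below mean listed in this sense. A stage with no value for a region means that no list with that stage held the region. All 59 regions had at least 5 CpGs. Being listed is how regions came to be annotated, so their gains are descriptions and not independent findings. Expression was not measured, and germ cell identity could not be checked on marker expression. Of the germ cell markers Dazl, Ddx4, Mael, Sycp3, Tex101 and Stk31, 3 of 6 had an annotated region, as did 6 of 6 Sertoli, 2 of 5 Leydig and peritubular and 4 of 5 blood and endothelial markers. From GD20 to PND5 these marker sets had 1, 5, 2 and 3 genes with a listed region, and 90.8% of all annotated genes held a rising one. These counts say nothing about cell identity.

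**Figure D1:**
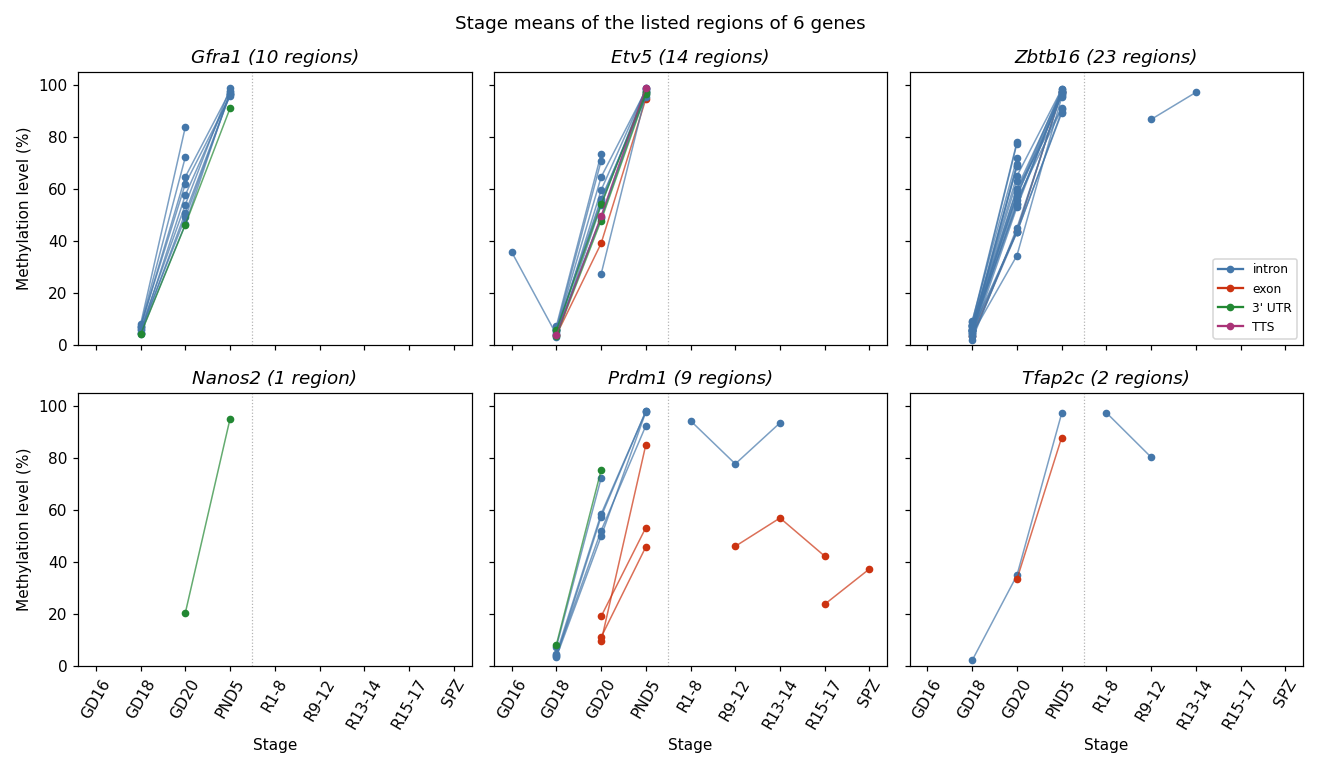
Methylation level (percent, vertical axis) of every listed region of the 6 genes at each stage (horizontal axis), 1 point per region and stage mean, joined where neighbouring stages were compared and coloured by gene part. Regions sit between 2% and 9.2% at GD18, spread between 9.4% and 83.8% at GD20, and mostly lie above 90% at PND5, where 2 exon regions of Prdm1 stand at 53.2% and 45.8%.

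Most regions of these genes with values at GD18 and PND5 passed from nearly unmethylated to nearly full methylation. The 13 regions listed only up to GD20 have no PND5 value, and the 6 listed only after it have no GD18 value. From GD18 to GD20, 53 of the 59 regions rose (89.8%), against 81.7% of all annotated regions, and from GD20 to PND5 46 rose (78%), against 79.3%. These shares are near the background and say nothing particular about the 6 genes. Median levels of the 53 regions were 5.5% at GD18 and 56.2% at GD20, and the median rise was 50.7 points, against 50.6 points over all annotated regions of that list. The 46 regions had a median of 51.4% at GD20 and of 96.85% at PND5, and the median rise was 44.55 points, against 44.4 points over all annotated regions of that list. At PND5, 40 of the 46 (87%) stood at 90% or more, against 83.9% of annotated regions of that list. None of the 59 regions rose from GD16 to GD18 (0% of annotated regions), fell from GD18 to GD20 (0%) or fell from GD20 to PND5 (0.00668%). The 2 lists share the GD20 samples.

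The 40 regions listed at both steps gave a full course. Their median level was 4.65% at GD18, 53.75% at GD20 and 97.25% at PND5. By GD20 a median of 52.8% of the whole rise was complete, with a range from 33.2% to 63.7%, and in the 19612 annotated regions with the same course the median was 52.9%. The median share was 51% in the 8 such regions of Gfra1, 52.8% in the 11 of Etv5, 53% in the 16 of Zbtb16 and 55.6% in the 4 of Prdm1. The single such region of Tfap2c was at 34.4%, near the lowest of the 40, a Zbtb16 region at 33.2%. To be among the 40, a region had to differ by at least 30 points at each step. That limit bounds the share in advance, in members and annotated regions alike, so its middle position is no finding.

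The authors sorted gaining regions into an early, a continuous and a late group. Among the 59 regions, early ones were listed as rising only from GD18 to GD20, and late ones only from GD20 to PND5. Continuous ones were listed at both steps. A smaller rise at the other step is not excluded, since a listing needs at least 30 points. Of the 59 regions 13 were early (22%), 40 continuous (67.8%) and 6 late (10.2%), against 16.2%, 65.5% and 13.8% of all annotated regions. Zbtb16 held 7 early and 16 continuous regions, and Gfra1 2 early and 8 continuous ones, with no late region in either gene. Etv5 held 2 early, 11 continuous and 1 late region. Prdm1 spread over all groups with 2, 4 and 3. Tfap2c had 1 continuous and 1 late region, and the only region of Nanos2 was late.

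None of the 59 regions lay in a promoter or a 5′ UTR by the authors' annotation, whereas 4.33% of all annotated regions were promoter regions. The parts were 47 introns, 6 exons, 5 regions in 3′ UTRs and 1 at a transcription end. Promoter sequences from RefSeq (assembly GRCr8, 250 bases before to 50 after the gene start) were found for Gfra1, Etv5, Nanos2 and Prdm1. They are shown for the members with the most and the fewest CpGs, because CpGs are the sites that the assay reads and the 2 promoters differ strongly in them. Capitals mark each CG, a motif that reads the same on both strands and that 94.5% of all 33469 promoter sequences of this length hold at least once.
Etv5, chr11:92113013-92113312, plus strand: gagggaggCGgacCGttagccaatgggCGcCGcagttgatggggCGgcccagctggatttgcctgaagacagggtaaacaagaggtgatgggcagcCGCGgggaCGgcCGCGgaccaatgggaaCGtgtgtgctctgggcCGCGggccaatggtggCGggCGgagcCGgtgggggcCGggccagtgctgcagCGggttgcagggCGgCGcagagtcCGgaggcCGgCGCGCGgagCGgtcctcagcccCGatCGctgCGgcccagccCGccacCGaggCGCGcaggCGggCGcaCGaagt
Nanos2, chr1:87763466-87763765, plus strand: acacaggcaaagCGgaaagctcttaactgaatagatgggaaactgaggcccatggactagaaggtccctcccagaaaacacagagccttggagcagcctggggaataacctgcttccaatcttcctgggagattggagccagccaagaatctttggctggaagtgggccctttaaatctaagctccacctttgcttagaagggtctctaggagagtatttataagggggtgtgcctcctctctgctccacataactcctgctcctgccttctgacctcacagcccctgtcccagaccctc
The Etv5 promoter held 36 CGs, a number reached by 5.43% of all promoters, and the Nanos2 promoter held 1, where 13.6% of promoters held as few or fewer. Gfra1 held 19 and Prdm1 22, against a median of 7 over all promoters. The methylation levels of these windows are not in the lists, and they cannot be placed among the regions, since the build of the deposited coordinates is unknown here. A promoter can be absent from the lists because it was not captured or because it did not pass the listing limits. All region coordinates below are as deposited.

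Gfra1 was taken first among the stem cell genes, as the receptor of the niche signal. Its 10 regions (chromosome 1, transcript NM_012959) rose from between 4% and 7.9% at GD18 to between 46.2% and 83.8% at GD20. The largest rise of the whole gene set lay in its intron 8 (chromosome 1, 279216447 to 279217060, 7 CpGs), from 7.9% to 83.8%, and only 0.699% of annotated regions of that list rose by as much or more. The authors' deposited table gives an adjusted p of 4.51e-17 for that rise. A second region of intron 8 (279214900 to 279215404) rose from 7.1% to 72.2%. Neither was listed at the next step, so their PND5 levels are unknown.

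From these 2 regions on, the GD20 level of Gfra1 stepped down towards the end of the gene. The last 5 regions span 9.32 kb, and their GD20 levels, in transcript order, were 83.8%, 72.2% and 61.9% in intron 8, 53.9% in intron 9 and 46.2% in the 3′ UTR of exon 10 (279207742 to 279208742). No level interrupts this order, which was noticed after the values were seen, and their CpG density did not follow it, at 1.14, 2.38, 4, 3.3 and 1.2 CpGs per 100 bp. At PND5 the 3 of them with a value had closed up at 95.6%, 98.7% and 91%. The 5 regions further upstream, in introns 4 and 5, had between 46.4% and 64.6% at GD20 and between 96.3% and 97.6% at PND5. The smallest rises from GD18 to GD20 were 42.2 points each, in the 3′ UTR and in intron 4 (279277331 to 279278068). The latter then had the largest listed rise of the gene from GD20 to PND5, from 46.4% to 97.4%, followed by another intron 4 region (279288468 to 279288712) from 49% to 96.4%. The smallest listed at that step were 33 points in intron 5 (279255088 to 279255989), from 64.6% to 97.6%, and 33.7 points in intron 8 (279212205 to 279212354), from 61.9% to 95.6%. No annotated region of Gfra1 was listed in spermatids.

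Etv5 gave the only loss of the gene set between GD16 and GD18. Intron 5 (chromosome 11, 82201402 to 82201866, 7 CpGs, transcript NM_001107082) fell from 35.7% to 3.9%, with an adjusted p of 6.58e-13 in the authors' deposited table. It then rose to 59.5% at GD20 and 98.4% at PND5, so that its later course was that of the other introns. Such a loss was listed at 0.341% of annotated regions, so 1 of 59 members (1.69%) rests on a single region. The loss of 31.8 points was close to that of all 102 annotated losses, whose median change was -32.05 points, and near the listing limit of 30.

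The remaining intron 5 regions of Etv5 differed from each other over short distances. At 961 bp from the erased region, another one (82202828 to 82203124, 10 CpGs) stood at 27.2% at GD20, the lowest GD20 level of the Etv5 regions, and rose to 96.4% at PND5. It was the only late region among the 47 intronic ones. Further along, a region at 82208886 to 82209499 had reached 70.7% at GD20 from 6.1%. Intron 9 showed the same contrast, with 73.4% (82239863 to 82240380) and 48.9% (82238513 to 82238674) at GD20 at a distance of 1188 bp.

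The only exon region of Etv5, exon 4 (82197808 to 82198287), rose from 3.7% through 39% to 94.6%. Its gain from GD18 to GD20, 35.3 points, was the smallest among the 13 Etv5 regions listed at that step. The 2 regions in the 3′ UTR of exon 13 rose from 5.6% through 54% to 97.3% (82249548 to 82250606, 27 CpGs) and from 3.5% through 47.8% to 96.4% (82251442 to 82251699). The region at the transcription end (82252692 to 82253322) rose from 3.6% through 49.6% to 98.9%, the highest PND5 level among the 46 regions with one. The smallest listed rise from GD20 to PND5 lay in intron 11 (82246729 to 82247272), from 64.5% to 98%. No annotated region of Etv5 was listed in spermatids.

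Zbtb16 had the most regions, spread over 153 kb of chromosome 8 (transcript NM_001013181), and 98.5% of the 8134 annotated genes had fewer. This count was not set against gene length or panel coverage. All 23 rose from GD18, from between 2% and 9.2%, to between 34.3% and 77.9% at GD20. The 2 largest rises were in intron 3 (53069152 to 53069393), from 7.7% to 77.4%, and in intron 4 (53005086 to 53005550), from 8.7% to 77.9%. The smallest were also in intron 4 (53003839 to 53004143), from 4.1% to 34.3%, and in intron 5 (52990915 to 52991184), from 5.7% to 43.5%. High and low regions were thus neighbours: the 77.9% and the 34.3% region of intron 4 lie 942 bp apart.

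By PND5 the 16 Zbtb16 regions with a value had come to between 89.1% and 98.3%. Among them the region that was lowest at GD20 rose most, by 60.9 points to 95.2%, followed by the intron 5 region named above, by 54 points to 97.5%. All 16 ended in that narrow range, so the size of the rise was largely set by the GD20 level. The smallest listed rises were 31.2 points in intron 4 (53025625 to 53026440), from 59.8% to 91%, and 33.4 points in intron 2 (53101624 to 53101849), from 64.9% to 98.3%. The exon 2 region (53142379 to 53142461) is CpG-dense, with 8 CpGs in 83 bp, and rose from 3.3% through 43.9% to 97.3%. The 2 lowest PND5 levels, 89.1% and 89.7%, came from intron 2 regions 820 bp apart, at 43.5% and 43.2% at GD20.

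**Figure D2:**
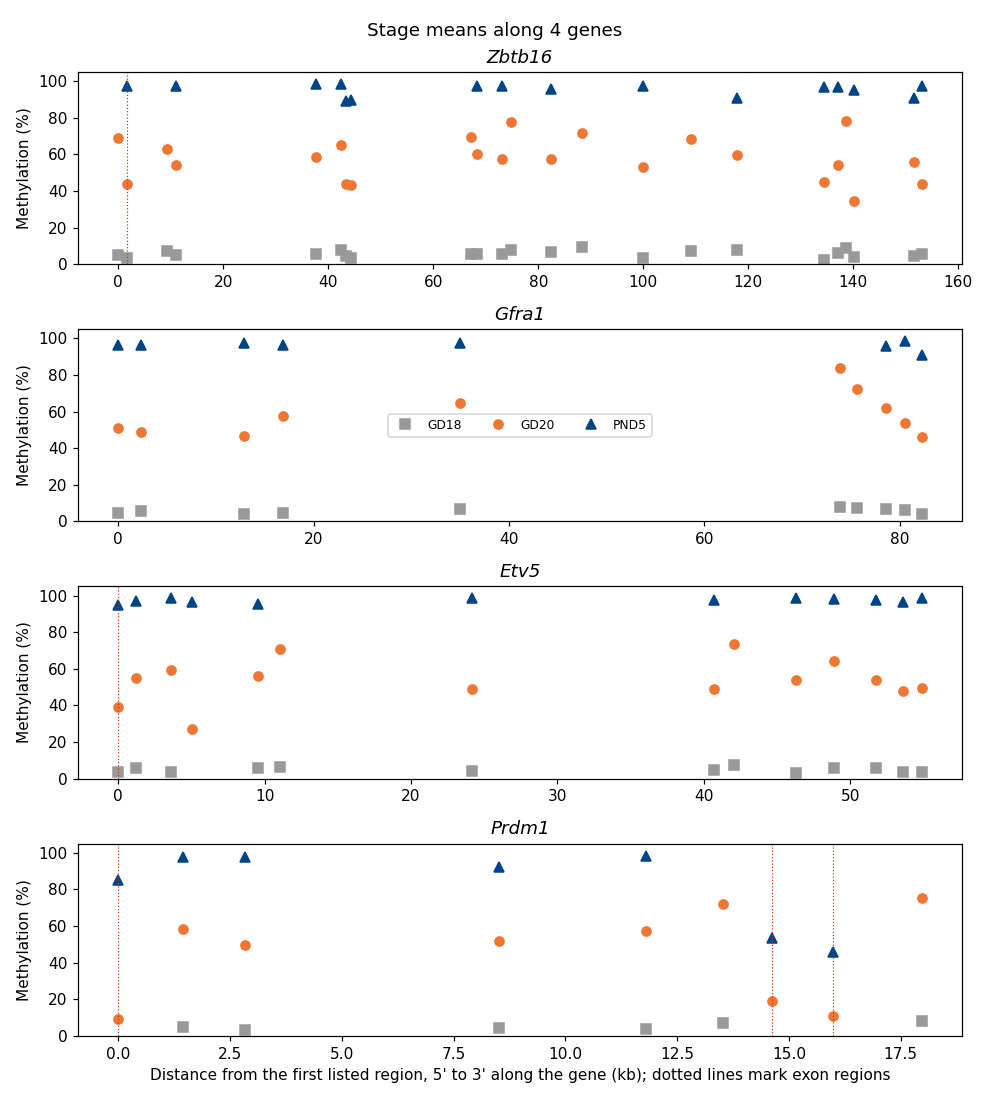
Methylation level (percent) at GD18 (grey squares), GD20 (orange circles) and PND5 (blue triangles) of each region of Zbtb16, Gfra1, Etv5 and Prdm1 against its distance in kb from the first listed region in the direction of transcription; dotted lines mark exon regions. GD20 levels differ between neighbours, from 83.8% to 46.2% along the end of Gfra1 and from 72.2% to 19% in Prdm1, while PND5 levels are nearly flat except in exons 5 and 6 of Prdm1.

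Nanos2 is a gene with a single exon and had a single region, in its 3′ UTR (chromosome 1, 79894895 to 79895464, 10 CpGs, transcript NM_001108908). The level was 20.4% at GD20 and 95.1% at PND5, with an adjusted p of 4.31e-29 in the authors' deposited table. A rise of 74.7 points or more was found at 1.37% of the annotated regions of that list. The region was not listed from GD18 to GD20, and its GD18 level is unknown. Among the 5 regions in 3′ UTRs of these genes it had the lowest GD20 level, and the others lay between 46.2% and 75.3%. It was the only late region among the 5, and a late region is by its definition low at GD20.

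Prdm1 showed the widest spread of the 6 genes. Its 5 intron regions (chromosome 20, transcript NM_001107639) had between 49.8% and 72.2% at GD20, and the 4 of them with a PND5 value had between 92.4% and 98%. The smallest of the 6 listed rises to GD20 were in intron 2 (49481261 to 49481766), from 3.4% through 49.8% to 97.7% at PND5, and in intron 3 (49475439 to 49476098), from 4.2% through 52% to 92.4%. Its 3 exon regions were far lower at GD20. Exon 2 (49484333 to 49484606) stood at 9.4%, exon 5 (49469484 to 49469982) at 19% and exon 6 (49468278 to 49468623) at 11%. Every exon level lay below every intron level of the gene at GD20. The 3 exon regions were all late and no intron region was, and a late region is by its definition low at GD20.

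The 3 exons then parted. Exon 2 rose to 85.1% at PND5, a gain of 75.7 points that was the largest of the 59 regions at this step. The authors' deposited table gives an adjusted p of 6.91e-22 for it. Exon 5 rose to 53.2% and exon 6 to 45.8%, by 34.2 and 34.8 points. Both ended among the lowest listed PND5 levels: 1.23% of the 23746 annotated regions of that list ended at or under the level of exon 5, and 0.531% at or under that of exon 6. The 3′ UTR region of exon 7 (49466503 to 49466638), 1639 bp beyond exon 6, had already reached 75.3% at GD20 from 8.2%. The adjoining intron 4 region on the other side (49470930 to 49471079), 947 bp from exon 5, had reached 72.2% from 7.3%. Neighbours within 2 kb that differ at GD20 by as much as exon 6 and the 3′ UTR, 64.3 points, made up 0.145% of the 7600 such pairs in annotated genes. The pair of exon 5 and intron 4, at 53.2 points, was matched or passed by 1.17% of them. These pairs were chosen after their values were seen. The CpG densities of the exons, at 1.82, 2.2 and 2.6 CpGs per 100 bp, were below the 3.33 and 3.68 of these 2 neighbours.

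Tfap2c had 2 regions on chromosome 3 (transcript NM_201420). Intron 4 (170554394 to 170554899, 10 CpGs) rose from 2.1% at GD18 to only 34.8% at GD20 and then to 97.1% at PND5. The gain of 32.7 points at the first step lay just above the listing limit. Exon 7 (170557735 to 170557993), the last exon, rose from 33.3% at GD20 to 87.8% at PND5 and was not listed before. Both regions thus entered GD20 at close to the same level, below the median of 48.7% for annotated exons and of 54.7% for annotated introns.

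Seen by part of the gene, exon regions of these genes were low at GD20. The 6 exon regions lay between 9.4% and 43.9%, with a median of 26.15%, and the 47 intron regions between 27.2% and 83.8%, with a median of 57.4%. Over all annotated regions the medians were 48.7% in exons and 54.7% in introns. Of the 6 exon regions 4 were in the late group (66.7%), against 21.1% of annotated exon regions, and of the 47 intron regions 1 was (2.13%), against 11.7%. Of these 4 late exon regions 3 belong to Prdm1, and a late region is by its definition low at GD20, so the gap was not tested and is no finding about the set. At PND5 the 6 exon regions had a median of 86.45%, against 96.7% for annotated exons, and the 35 intron regions one of 97.2%, against 96.9%.

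**Figure D3:**
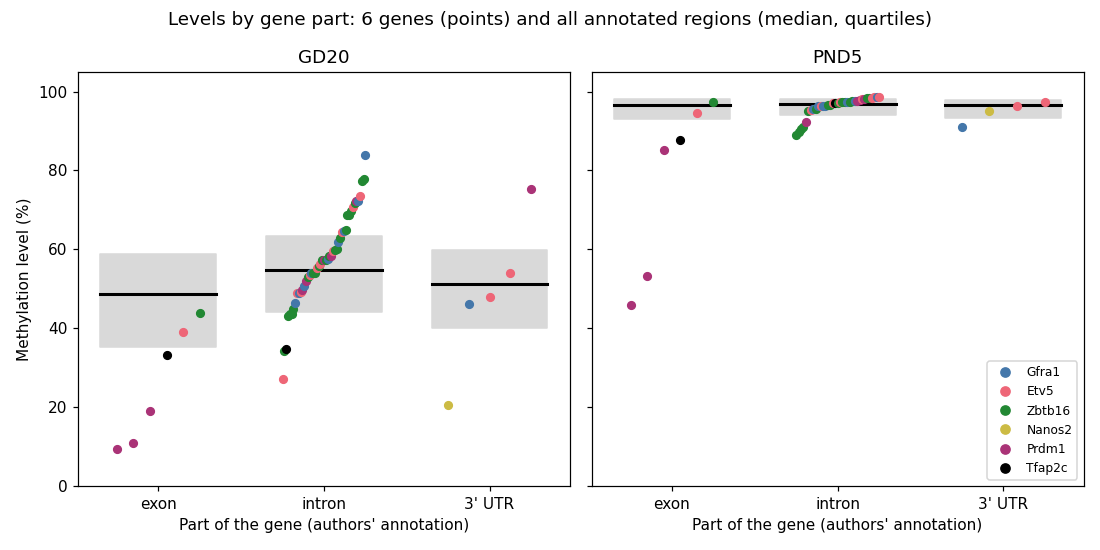
Methylation level (percent) at GD20 (left) and PND5 (right) by part of the gene, 1 point per region coloured by gene, over the median (black line) and the quartiles (grey band) of all annotated regions of that part. The 6 exon points lie between 9.4% and 43.9% at GD20, 4 of them under the lower quartile of 35.2%, whereas intron points spread on both sides of their median.

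Length and CpG content of the 59 regions were near those of all annotated regions. The median length was 465 bp against 448.5 bp, the median number of CpGs was 8 in both, and the median density was 1.98 against 2.09 CpGs per 100 bp. Density rose from early through continuous to late regions, with medians of 1.63, 2.02 and 2.4 in the 6 genes and of 1.82, 2.05 and 2.38 over all annotated regions. Across the 59 regions density and GD20 level were weakly and inversely related (Spearman's rho of -0.30), as across 28611 annotated regions (-0.15). The regions share their libraries and, within a gene, their neighbourhood. Within genes rho was -0.73 over the 14 regions of Etv5, -0.43 over the 23 of Zbtb16, -0.03 over the 10 of Gfra1 and 0.82 over the 9 of Prdm1, where the sign was opposite to that in Etv5 and Zbtb16.

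**Figure D4:**
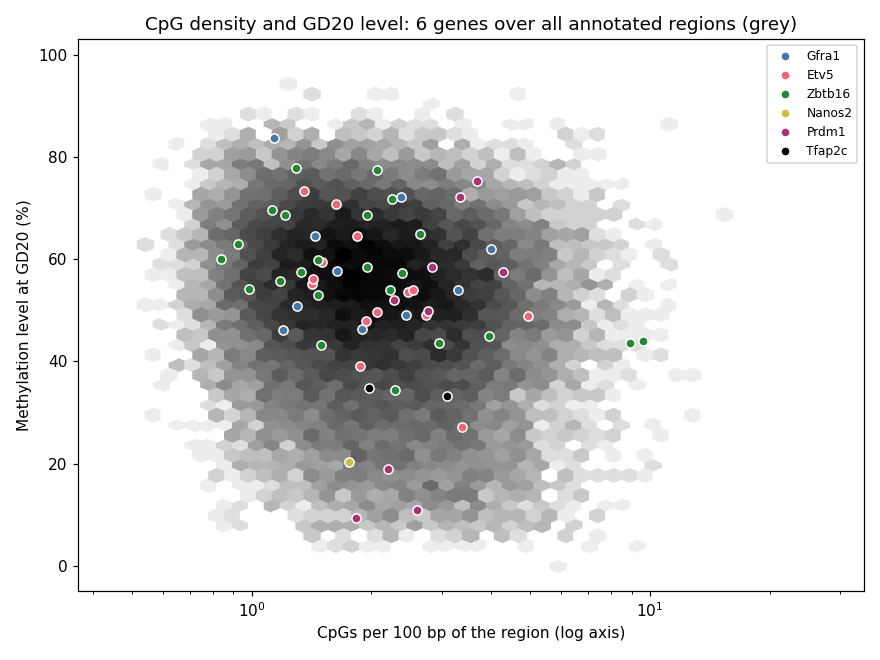
Methylation level at GD20 (percent) against CpGs per 100 bp of the region (log axis) for the regions of the 6 genes (coloured points) over the density of all annotated regions with a GD20 level (grey, darker for more regions, log scale). The coloured points follow the grey field, apart from the 3 Prdm1 exon regions between 9.4% and 19% and the Nanos2 region at 20.4% near its lower edge.

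GD20 levels also differed between close neighbours. Of the 26 pairs of neighbouring regions within 2 kb in these genes, the GD20 levels differed by a median of 13.35 points, and 10 pairs (38.5%) differed by 20 points or more. In annotated genes the median was 12.1 points, and 28.5% of pairs differed by as much.

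In spermatids 5 of the 59 regions (8.47%) were listed in any of the 4 lists, against 10.6% of annotated regions, and they lie in Prdm1, Tfap2c and Zbtb16. From R1-8 to R9-12 intron 3 of Prdm1 (49475439 to 49476098) fell from 94.3% to 77.7%, and the Tfap2c intron 4 region fell from 97.4% to 80.3%. The authors' deposited table gives them adjusted p-values of 8.90e-07 and 9.86e-05. These are 2 of 59 regions (3.39%), against 1.68% of annotated regions, and none rose, against 2.31%. At PND5 the same regions had stood at 92.4% and 97.1%, but PND5 was not compared with R1-8 in these lists.

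From R9-12 to R13-14, 3 regions rose (5.08%), against 1.43% of annotated regions. The Prdm1 intron 3 region returned from 77.7% to 93.5%, and intron 3 of Zbtb16 (53055401 to 53055889) rose from 86.7% to 97.1%. Exon 5 of Prdm1 rose from 46% to 56.9%, with an adjusted p of 0.0441 in the authors' deposited table. A fall to R9-12 followed by a rise, as in Prdm1 intron 3, was listed at 226 annotated regions (0.755%), and the 2 lists share the R9-12 samples. None of the 59 regions was among the 5.06% of annotated regions that fell at this step. The Prdm1 intron 3, Tfap2c and Zbtb16 regions were the members in cluster 7 of the authors' spermatid clusters, whose annotated sheet holds 535 regions.

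Exons 5 and 6 of Prdm1, which were partly methylated at PND5, had levels between 23.7% and 56.9% wherever they were listed later. Exon 5 fell from 56.9% at R13-14 to 42.2% at R15-17, with an adjusted p of 0.0382 in the authors' deposited table. Losses at this step were listed at 0.691% of annotated regions, and none of the 59 was among the 2.99% that rose. Exon 6 stood at 23.7% at R15-17 and rose to 37.3% in spermatozoa, with an adjusted p of 0.0329 in the authors' deposited table. Gains at this step were listed at 0.922% of annotated regions, and none of the 59 was among the 0.594% that fell. No annotated region of Gfra1, Etv5 or Nanos2 appears in a spermatid list, and the levels of these regions after PND5 are unknown.

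The wider germ cell pathway, 72 genes around stem cell renewal, primordial germ cell fate and the families of the 6 members, was listed about as often as annotated genes at large in the steps up to PND5. Of these, 71 were found by symbol and 41 had an annotated region. From GD18 to GD20, 33 of the 41 genes (80.5%) held a rising region, against 84.5% of annotated genes, and from GD20 to PND5 40 did (97.6%), against 90.8%. None held a fall from GD16 to GD18 (1.14% of annotated genes), GD18 to GD20 (0%) or GD20 to PND5 (0.0246%), nor a rise from GD16 to GD18 (0%). The ligand of Gfra1 was among the strongest, with intron 2 of Gdnf (chromosome 2, 56896458 to 56896753) rising from 8% to 90.9% at GD20. It was followed by 2 regions in intron 1 of Itga6, an integrin carried by spermatogonial stem cells, from 7.9% to 85.5% and from 8% to 81.1%.

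Late rises in the pathway were led by Foxo1, a transcription factor of stem cell maintenance, whose intron 1 (chromosome 2, 141481279 to 141481920) rose from 19.9% at GD20 to 97.9% at PND5. Exon 4 of Smad5, a mediator of BMP signals, rose from 16.4% to 92.2%, and intron 4 of the cyclin gene Ccnd2 from 21.7% to 96.4%. Promoter regions were listed at 2 of the genes. The promoter of Lefty2, a secreted inhibitor of Nodal signalling (chromosome 13, 99172131 to 99172973), rose from 5.7% through 62.4% to 97.8%. The promoter of Csf1r, a receptor of the niche factor CSF1 (chromosome 18, 56430932 to 56431382), rose from 5.8% through 59% to 92.2%.

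Close relatives of the members were listed unevenly. A gene without an annotated region may lie outside the captured panel or may not have passed the listing limits. The lists do not tell these apart. Gfra2 and Gfra4 had 1 region each, at 55.6% and 38.9% at GD20, and Gfra3, Etv1, Etv4, Nanos1 and Nanos3 had no annotated region. In the Tfap2 family, exon 6 of Tfap2a reached only 63.1% at PND5 and intron 2 of Tfap2d 58.6%, from 32.6% and 9% at GD20. Both were late regions. Tfap2e had an early and a continuous region in intron 4, at 49.1% and 45.3% at GD20, and the continuous one reached 78.9% at PND5. Tfap2b had no annotated region.

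In the 4 spermatid lists together, 13 of the 41 pathway genes held a listed region (31.7%), against 26.6% of annotated genes. From R1-8 to R9-12, 2 genes held a rise (4.88%, against 6.7% of annotated genes) and 4 a fall (9.76%, against 5.37%). The largest change was a fall of exon 3 of Sall1, a zinc finger gene, from 77.7% to 40.6%, in a region that had stood at 65.2% at PND5, and intron 1 of Dppa3, a maternal and germ cell factor that protects methylation, rose from 9.3% to 23.6% and then fell to 6.5%. Egr2, an immediate early transcription factor, rose in its 3′ UTR from 14.6% to 37%. From R9-12 to R13-14, 5 genes held a rise (12.2%, against 4.67%) and 2 a fall (4.88%, against 14.2%). Intron 2 of Tfap2d rose from 22.7% to 38.6%, and intron 1 of Foxo1 (141453935 to 141454191) fell from 94.4% to 81.4%.

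In the last steps the signalling partner of Gfra1 was listed again, in a region that had risen from 8.3% at GD18 to 73.7% at GD20. Intron 5 of Ret (chromosome 4, 150226930 to 150227096) rose from 87.1% at R13-14 to 98.2% at R15-17 and fell to 87% in spermatozoa, in 2 lists that share the R15-17 samples. At the first of these steps 3 genes rose (7.32%, against 9.34% of annotated genes), with intron 2 of the chemokine gene Cxcl12 going from 87.8% to 98.3% and exon 12 of the cadherin gene Cdh1 from 89.6% to 99.8%. At the second, Ret and Pax7 fell (4.88%, against 1.97%), intron 4 of Pax7 from 99.3% to 85.6%, and none of the 41 genes rose (2.94% of annotated genes). None of them fell at the first step (2.41%).

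Over the 3 stages GD18, GD20 and PND5, the courses of Gfra1 and Zbtb16 were set beside those of other genes. Gene courses were the medians over the regions with all 3 levels, in genes with at least 3 such regions, and the distance was the root mean square difference. Nearest to Gfra1 (5.1%, 52.35% and 96.4%) were Ttll12, Srrm2 and Cryl1 at 0.119, 0.194 and 0.222 points. Nearest to Zbtb16 (5.3%, 54.05% and 96.9%) were Crispld2, Dpy19l3 and Itsn1 at 0.144, 0.176 and 0.185 points. Of the other 1970 genes, 1663 lay within 5 points of Gfra1 and 1675 within 5 points of Zbtb16. Gfra1 and Zbtb16 were 1.03 points apart. In both genes the regions used were those listed at both steps, so their early regions are left out. A region listed at both steps had to pass the listing limit at each. That limit bounds its levels in advance, in these and the compared genes alike, so the closeness of the courses is no finding.

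The members also appear in the authors' deposited tables of biological process terms. A member was in 13 of the 76 terms of the early group, 8 of the 98 of the continuous group and 28 of the 137 of the late group. In the early group Etv5 was in 8 of the 13, on synapses, nervous system and cell development, and Gfra1, Zbtb16 and Prdm1 shared the 3 on kidney and urogenital development. In the late group Prdm1 was in 16 of the 28, mostly on heart, vessel and eye development, Etv5 in 10 and Tfap2c in 9, mostly on synapses, glands and epithelia. Only 1 of the 28 names cell fate, cell fate commitment, with Prdm1 and Tfap2c. In the authors' segment table a member was in 12 of the 33 terms of the dynamic set and 10 of the 23 of the stable set. Zbtb16 was in 10 and Prdm1 in 9 of these 12 dynamic terms, mostly on leukocyte differentiation and activation. In spermatid cluster 7 a member was in 2 of the 40 terms. Nanos2 was in none of the terms of these sets. How often other annotated genes fall in such terms was not computed, so these counts have no background. The terms were found in the authors' own gene sets, and a member's place in those sets partly fixes in advance which terms can hold it. The counts are therefore descriptions and show no trait of a single member.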

How the data were processed

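The submitters' processing notes name Bowtie2 and Bismark (version 0.19.0). Per the labels' design text, loci were grouped into segments of 50 bp or more before the search for differential methylation, although annotated regions as short as 21 bp are listed. Coverage minimum, genome build and the combination of replicate samples are unstated in these sources. Per the file headers, a list holds the mean methylation fraction of each region in both stages, with the authors' p-value and its adjusted form, and the units behind that p-value are unstated too. Here the deposited fractions were turned into percent, and differences are later minus earlier, checked against both levels.

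RefSeq transcripts of the annotated sheets were matched to gene symbols in a table of assembly GRCr8, used for names only (94.1% of regions). Annotated regions were joined to the lists by chromosome, end and a start 1 bp lower. The join was checked on simulated lists. Work was done in Python 3.11.15 with pandas 2.3.3, numpy 2.4.6 and SciPy 1.17.1. No value per sample was used, so no test over samples was run. The members, gene lists and the rule for named regions (all regions of genes with 5 or fewer, and otherwise promoter, exon, 3′ UTR, transcription end, GD16 and spermatid regions and the 2 largest and smallest differences per list; in the pathway list promoters and the 3 largest differences per list) were chosen with earlier results of these data known. Regions of Gfra1, Etv5, Zbtb16 and Prdm1 named for their neighbours were chosen after their values were seen.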

Additional observations from a re-analysis of the deposited data

How the results depend on the processing

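The counts depended most on the size limit of a listing. With that limit raised by 10 points, 48 regions still rose up to GD20 and 31 after it, but 0 remained in the list from GD16 to GD18 and 0 in each of the 4 spermatid lists. At an adjusted p of at most 0.001, 0 remained in the list from R13-14 to R15-17 and 0 in the spermatozoa list, so the later values of the Prdm1 exons rest on the weaker listings. Raising the limit moved 5 of 9 recomputed counts and medians, and the stricter p moved 2 of 12. Matching by an overlap of 1 bp changed no value. The minimum of 5 CpGs could test nothing, since all listed regions have at least 5. Means weighted by CpGs over the full courses were 4.87%, 52.8% and 96.4%. No paired analysis was possible because the lists give stage means and no values per sample, and for the same reason no sample could be left out in turn. Depth is unknown, so no level carries an interval.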
